A study of Mus musculus with 22 samples.

Results

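DNA replication and cell cycle genes were followed through a series of RNA-seq libraries from mouse embryonic stem cells (ESCs). The labels describe knockouts and conditional knockouts of regulators of the RNA modification m6A, with their controls. The 42 genes were chosen by name, as rows of the count table that encode origin licensing, replication fork, nucleotide synthesis and cyclin-CDK factors. They are 42 of 44749 entries in the table, and all 42 passed the filter on low counts in every comparison. By role they comprise 11 origin licensing genes, 6 helicase activation genes, 11 replication fork genes, 3 nucleotide synthesis genes, 6 genes of G1 and S phase control and 5 genes of G2 and M phase control.

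In G1 phase the origin recognition complex, with Cdc6 and Cdt1, loads the ring of Mcm2 to Mcm7 onto DNA, and geminin (Gmnn) later blocks further loading. At the start of S phase, kinases convert the loaded ring into an active helicase by adding Cdc45 and the GINS complex, and the polymerases, the clamp Pcna and its loader then copy the DNA. E2F transcription factors drive many of these genes in late G1, and cyclins with their kinases time entry into S phase and mitosis. Mouse ESCs are known for a short G1 phase and for cycling quickly.

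The cells were male ESCs from 129 mice, grown without feeder cells in serum and LIF. In the Ythdc1 set, 8 libraries came from ESCs with a conditional knockout (cKO) of Ythdc1, a nuclear reader of m6A, treated with 4OHT (4 libraries) or with DMSO as the control (4). 4OHT, or 4-hydroxytamoxifen, is a ligand used to switch on inducible Cre recombinases. In the Mettl3 set, 2 libraries were labelled as knockouts (KO) of Mettl3, the enzyme that writes m6A, and 2 as wild type (WT). The labels of that set give no Ythdc1 genotype and no treatment. In the Dux set, all 10 libraries carried the Ythdc1 cKO. They were Dux-Het under DMSO (2) and 4OHT (2), Dux-KO under DMSO (2) and 4OHT (2), and a pair with no Dux label, 1 under each treatment. Dux is a transcription factor known for activating a two-cell-stage program.

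The labels place the Ythdc1 set in 2 ESC lines, but its columns carry only the numbers 1 to 4, so line could not be assigned. They name neither the Cre driver nor the dose or duration of 4OHT. No library analysed here combines 4OHT with cells lacking the Ythdc1 cKO, so 4OHT itself and loss of Ythdc1 cannot be told apart. The labels do not say whether replicates are separate cultures, and p-values here cover no more than the spread among these libraries. In bulk RNA, fewer cells in a cycle phase and less RNA per cell cannot be told apart.

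Libraries held between 24.96 and 54.14 M counts. Levels are given as CPM, counts scaled to a common library size of 1 M, after 1 TMM scaling over 22 libraries. All 8 markers of ESCs were detected in all libraries, from a minimum of 22.5 CPM for Klf4 upward, while the 7 fibroblast and feeder markers summed to 9.29 to 66.5 CPM. Ythdc1 was 80.2, 70.8, 73.7 and 77.9 CPM under DMSO and 62.8, 49, 61.2 and 51.8 CPM under 4OHT in the Ythdc1 set. In the Dux set the Ythdc1 levels under the 2 treatments did not differ past the threshold (Dux-Het log2 change -0.28, adjusted p = 0.456; Dux-KO -0.09, adjusted p = 0.843; edgeR quasi-likelihood test). Mettl3 was 29 and 29.9 CPM in the WT libraries and 14.5 and 28.4 CPM in those labelled KO (log2 change -0.44, adjusted p = 0.207), and the second of these was close to WT. Ythdc1 was higher in the Mettl3 KO libraries, at 136 and 154 CPM against 81.7 and 83.6 CPM in WT (log2 change 0.82, adjusted p = 2.36e-04). The labels do not give the deleted exons, so these whole-gene counts do not check the deletions.

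Promoters of the members were read from a RefSeq table on GRCm38.p6 that holds 300 bases per start, 250 before it and 50 after it. Of the 42 members, 32 had an entry. Entries were missing for Mcm4, Gmnn, Rfc2, Pole, Gins1, Gins2, Gins4, Ccne2, Ccnd1 and Ccna2. The letters of the usual E2F site (TTTCCCGC, TTTGGCGC, TTTCGCGC or TTTGCCGC, on either strand) were found in 15 of 32 members (46.9%), against 704 of 27025 genes in the table (2.6%). Among origin licensing genes 7 of 9 held them. So did 1 of 3 helicase activation genes, 4 of 9 replication fork genes and 0 of 3 nucleotide synthesis genes. In G1 and S phase control 2 of 4 genes held them, and in G2 and M phase control 1 of 4. The CHR element (TTTGAA or TTCGAA, either strand), known from genes of G2 and M phase, was in 9 of 32 members (28.1%) against 21.7% of all genes. It was in 3 of the 4 G2 and M phase members and in 6 of the 28 other members (21.4%). CCAAT on either strand was in 22 of 32 members (68.8%) against 41.1% of all genes. A match describes letters in a window and no binding was measured here. The stretches below are shown because they carry these letters in members whose changes are described later, 5′ to 3′ on the gene's own strand, with E2F and CHR matches in capitals and CCAAT matches left in lower case. In Mcm5, and in the upstream match of Mcm6, matches on both strands overlap in 1 run.
Cdc6, E2F, chr11:98908001-98908060, plus strand: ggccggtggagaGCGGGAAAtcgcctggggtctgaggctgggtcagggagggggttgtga
Mcm5, E2F, chr8:75109344-75109403, plus strand: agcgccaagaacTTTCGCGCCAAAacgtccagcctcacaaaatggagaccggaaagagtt
Mcm6, E2F, chr1:128359736-128359825, minus strand: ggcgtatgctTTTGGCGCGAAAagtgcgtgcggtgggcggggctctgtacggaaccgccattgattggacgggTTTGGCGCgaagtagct
Cdc25a, E2F, chr9:109875489-109875548, plus strand: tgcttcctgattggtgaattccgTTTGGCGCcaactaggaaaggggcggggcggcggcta
Gins3, E2F and CHR, chr8:95633499-95633558, plus strand: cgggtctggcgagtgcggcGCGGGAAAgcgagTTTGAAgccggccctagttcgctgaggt
Cdk1, E2F and CHR, chr10:69352913-69353052, minus strand: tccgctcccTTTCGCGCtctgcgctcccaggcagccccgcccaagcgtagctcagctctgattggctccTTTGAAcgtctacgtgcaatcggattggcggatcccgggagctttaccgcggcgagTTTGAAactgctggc
Mcm2, CHR, chr6:88898811-88898870, minus strand: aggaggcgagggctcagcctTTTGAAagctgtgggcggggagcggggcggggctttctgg

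The first comparison asked how the replication and cell cycle genes differed between 4OHT and DMSO in Ythdc1 cKO ESCs. Of 42 members, 38 fell, none rose, and 4 did not pass the test (edgeR quasi-likelihood test, adjusted p under 0.05). Over all 24385 features tested, 21.4% fell and 23.7% rose, and among the 11084 features at least as abundant as the lowest member, 33.4% fell and 27.5% rose. The median log2 change was -0.57 over the members and -0.05 over those abundant features. 21 members fell by at least 1.5-fold and 2 by at least 2-fold, and the share of all features that fell as far was not computed. In 36 members every 4OHT library lay below every DMSO library, as in 20.7% of all features tested and 32.7% of those abundant features. Summed over the 42 members, the level was 4994 ± 117 CPM (SD, n = 4) under DMSO and 3313 ± 217 CPM (SD, n = 4) under 4OHT.

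All 11 origin licensing genes fell. Cdc6 (chr11:98907801-98923940, mm10), the loader of the Mcm ring, was 45.1, 45.7, 46.4 and 48.9 CPM under DMSO and 18.6, 23.2, 21.5 and 17.2 CPM under 4OHT. The groups were far apart, and the log2 change of -1.19 (SE 0.0887, adjusted p = 3.21e-08) was the largest fall of any member. Gmnn, the inhibitor of licensing, was 17.1, 15.5, 18 and 14.8 CPM under DMSO and 10.2, 9.43, 9.11 and 8.11 CPM under 4OHT, a log2 change of -0.81 (SE 0.105, adjusted p = 1.14e-05). The inhibitor thus fell together with the genes of loading. Mcm4, a ring subunit, was 182, 165, 166 and 162 CPM under DMSO and 98.7, 111, 96.2 and 84.4 CPM under 4OHT (log2 change -0.77, adjusted p = 3.68e-07). Mcm5 was 394, 350, 358 and 358 CPM under DMSO and 258, 276, 251 and 227 CPM under 4OHT (log2 change -0.51, adjusted p = 6.88e-06). No library of one group reached the range of the other in either gene. Ring subunits, which act as 1 complex, ranged in log2 change from -0.41 for Mcm2 to -0.77 for Mcm4. The smallest fall in the role was that of Orc1, the largest subunit of the origin recognition complex, at -0.26 (adjusted p = 0.00623). Per kilobase of merged exon, Mcm5 stood highest of the 42 members under DMSO (91.4 ± 4.83 CPM per kb, SD, n = 4) and Gins3 lowest (3.02 ± 0.362).

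Of the 6 helicase activation genes 4 fell. Mcm10, which takes part in switching on the helicase, was 136, 124, 125 and 117 CPM under DMSO and 77.4, 83.5, 78.9 and 66.4 CPM under 4OHT (log2 change -0.69, SE 0.0699, adjusted p = 8.27e-07). Cdc45 was 27.3, 30.7, 37.5 and 36.6 CPM under DMSO and 23.7, 28, 24.9 and 23.9 CPM under 4OHT (log2 change -0.37, adjusted p = 0.00668). Its groups overlapped, unlike those of Mcm10. The 4 GINS subunits, which form 1 complex, did not move alike. Gins1 and Gins4 fell, with log2 changes of -0.60 (adjusted p = 9.22e-05) and -0.43 (adjusted p = 3.62e-05). Gins2 was 72.7, 73.2, 73.5 and 70.3 CPM under DMSO and 81.3, 72.6, 67.7 and 75.6 CPM under 4OHT, and did not pass the test (log2 change 0.06, 95% interval -0.08 to 0.19, adjusted p = 0.496). The exons of Gins2 overlap those of Gse1 on the opposite strand, and Gse1 rose with a log2 change of 0.70. The sources used here do not say whether counting used strand, so reads of the overlap cannot be assigned. Gins3 had a log2 change of -0.29 (adjusted p = 0.0874) with overlapping groups.

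Of the 11 replication fork genes 10 fell. Lig1, the ligase that joins Okazaki fragments, was 153, 143, 146 and 142 CPM under DMSO and 82.2, 86.5, 84.4 and 69.7 CPM under 4OHT (log2 change -0.83, SE 0.0661, adjusted p = 5.9e-08). Pold1, the catalytic subunit of the lagging strand polymerase, was 96.7, 103, 119 and 112 CPM under DMSO and 58.2, 63.2, 64.8 and 57.9 CPM under 4OHT (log2 change -0.80, adjusted p = 2.51e-07). Pcna, the sliding clamp, was 161, 155, 152 and 159 CPM under DMSO and 94.5, 100, 91.2 and 81.4 CPM under 4OHT (log2 change -0.75, adjusted p = 9.42e-08). All 3 genes separated the groups with a wide gap. The clamp loader subunits ranged from -0.70 for Rfc4 (adjusted p = 7.75e-05) to 0.02 for Rfc5, the one that did not pass (95% interval -0.13 to 0.17, adjusted p = 0.817). The exons of Rfc5 overlap those of Wsb2 on the opposite strand, and Wsb2 rose (log2 change 0.27, adjusted p = 0.00296). Reads of that overlap cannot be assigned. Fen1, the flap nuclease of Okazaki fragments, was 44.1, 37.4, 33.6 and 43.4 CPM under DMSO and 33.5, 31.7, 27.9 and 29.5 CPM under 4OHT (log2 change -0.35, adjusted p = 0.00517). Its highest 4OHT library lay just under its lowest DMSO library. Gm10143, an entry whose exons overlap those of Fen1 on the opposite strand, held nearly the same levels (log2 change -0.32, adjusted p = 0.00661). The 2 entries cannot be told apart.

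Among nucleotide synthesis genes both ribonucleotide reductase subunits fell and thymidylate synthase did not pass. Rrm2 was 176, 172, 168 and 158 CPM under DMSO and 86.8, 98.7, 88.9 and 87.6 CPM under 4OHT, the smallest adjusted p of any member (log2 change -0.87, SE 0.0575, adjusted p = 8.14e-09). Rrm1 had a log2 change of -0.71 (adjusted p = 2.56e-07). Tyms was 44, 41.3, 40.4 and 37.8 CPM under DMSO and 42.1, 44.4, 43.6 and 32.8 CPM under 4OHT (log2 change 0.02, 95% interval -0.17 to 0.21, adjusted p = 0.889). Its groups overlapped almost fully.

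All 6 genes of G1 and S phase control fell, by unequal amounts. Ccne1, the cyclin that activates Cdk2 at the start of S phase, was 98.7, 90.9, 75.8 and 76 CPM under DMSO and 37, 54.5, 42.1 and 32.6 CPM under 4OHT (log2 change -1.01, SE 0.124, adjusted p = 6.01e-06). Cdc25a, the phosphatase that activates the kinases, was 78.2, 74.8, 73 and 71.5 CPM under DMSO and 39.9, 46.1, 40.1 and 37.9 CPM under 4OHT (log2 change -0.84, adjusted p = 7.94e-08). These 2 genes fell more than their kinase partner Cdk2 (log2 change -0.49, adjusted p = 3.27e-06), a difference between genes that was not tested. Ccnd1, a G1 cyclin, was 132, 105, 87.5 and 104 CPM under DMSO and 91.2, 99.9, 74.1 and 81.8 CPM under 4OHT. Its groups overlapped, and its fall was small (log2 change -0.28, adjusted p = 0.0371). The exons of Ccnd1 overlap those of LTO1 on the opposite strand, and LTO1 also had a log2 change of -0.28 (adjusted p = 0.0294). Reads of that exon overlap cannot be assigned. E2f1, a transcription factor of S phase genes, had a log2 change of -0.30 (adjusted p = 0.00993).

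All 5 genes of G2 and M phase control fell. Plk1, a mitotic kinase, was 131, 128, 126 and 132 CPM under DMSO and 66.7, 76.1, 66.4 and 61.1 CPM under 4OHT (log2 change -0.92, SE 0.0651, adjusted p = 1.86e-08). Cdk1, the kinase that drives mitosis, was 86.3, 87.1, 88.1 and 90.1 CPM under DMSO and 47.3, 57, 54.4 and 45.7 CPM under 4OHT (log2 change -0.76, adjusted p = 3.82e-07). In both, DMSO libraries agreed closely and every 4OHT library was far below them. The mitotic cyclin Ccnb1 had a log2 change of -0.68 (adjusted p = 4.46e-07), the S and G2 cyclin Ccna2 -0.62 (adjusted p = 2.34e-06) and the spindle kinase Aurka -0.54 (adjusted p = 5.35e-06).

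**Figure D1:**
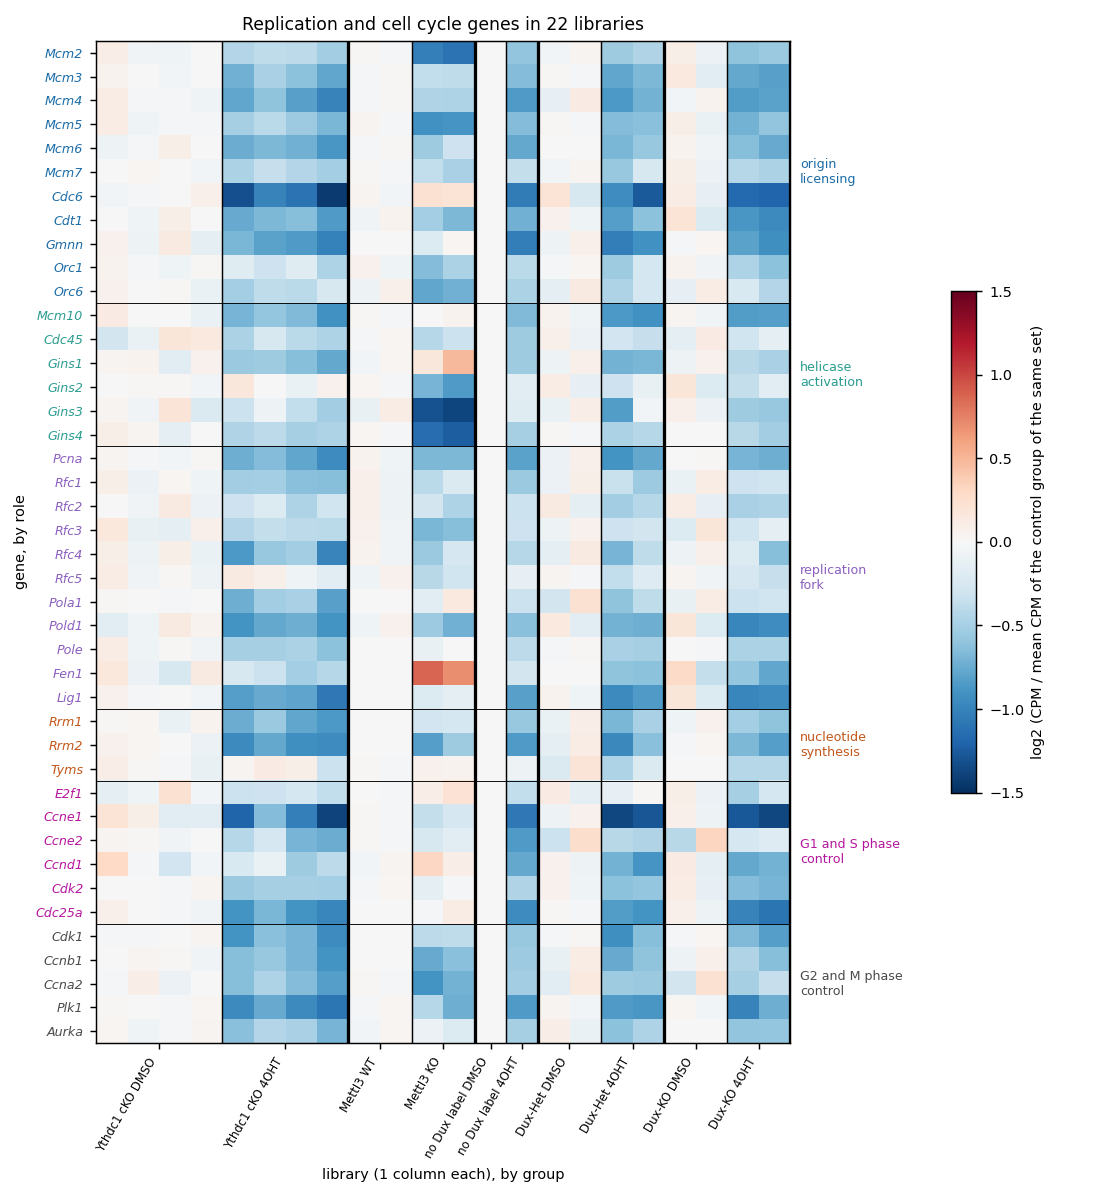
Each row is 1 of the 42 genes, grouped by role, and each column 1 of 22 libraries. Color is log2 of CPM over the mean CPM of the control group of the same set (DMSO or WT, blue lower, red higher). The 4OHT libraries are blue in nearly all rows. Fen1 is red in both Mettl3 KO libraries and was the 1 member called higher there.

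Other genes of the same pathways were counted in 7 lists of 119 genes, with the 42 members left out. In the Ythdc1 set 81 of them fell, 7 rose and 31 did not pass, while 33.4% of the features at least as abundant as the lowest member fell. By list, 9 of 13 licensing and firing genes fell, 20 of 27 fork genes, 7 of 10 nucleotide synthesis genes, 12 of 19 G1 and S phase genes, 29 of 34 G2 and M phase genes and 4 of 9 checkpoint genes. Tk1, the thymidine salvage kinase, had a log2 change of -1.19 (adjusted p = 2.34e-08) and Pold2, a lagging strand polymerase subunit, -1.01 (adjusted p = 4.62e-08). Of 7 CDK inhibitors none fell and 2 rose, while 23.7% of all features tested rose (27.5% of those at least as abundant as the lowest member). The inhibitors went both ways: 4 of the 7 log2 changes were below 0, down to -0.94, with a median of -0.09. Cdkn1a, the inhibitor p21, was 77.3, 73.5, 77 and 69.8 CPM under DMSO and 155, 140, 155 and 172 CPM under 4OHT (log2 change 1.09, SE 0.0657, adjusted p = 3.35e-09). Its groups moved apart opposite to the members. Also higher were the G1 cyclin Ccnd2 (log2 change 1.06, adjusted p = 6.32e-06), and the E2F repressors Rb1 (0.83, adjusted p = 2.77e-07) and Rbl2 (0.65, adjusted p = 5.56e-06). The remaining 3 that rose were Cdkn2b, Tfdp2 and Top1.

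Other measures moved with the same groups, and their part in the members' fall was not tested. The 10 markers of two-cell-like cells summed to 10.3 to 48 CPM under DMSO and 133 to 284 CPM under 4OHT. The ESC markers summed to 1643 to 1890 CPM under DMSO and 1073 to 1353 CPM under 4OHT, with 4 of 8 lower by test. Of all features at least as abundant as the lowest member, 33.4% were lower. The 7 primitive endoderm markers summed to 27.9 to 39.3 and 35.1 to 46.4 CPM. Repeat families took 21.29 to 23.8% of counts under DMSO and 26.87 to 28.45% under 4OHT. DMSO library 1 stood apart from the other 3 DMSO libraries (chi-square statistics divided by their degrees of freedom were 30.97 to 37.05 for its pairs and 8.441 to 10.82 among those 3). Without it 37 members fell.

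The second comparison asked how the same genes differed between ESCs labelled Mettl3 KO and WT. Of 42 members 26 fell, 1 rose and 15 did not pass, while 14.9% of all 23977 features fell and 16.4% rose. Among features at least as abundant as the lowest member, 23.1% fell and 20.7% rose. The members' median log2 change was -0.36 and that of the abundant features -0.02. The summed level was 4286 ± 18.4 CPM in WT and 3182 ± 56.6 CPM in KO (SD, n = 2 each). The counts of calls rest on the WT libraries: leaving out WT library 1 gave 2 lower and 0 higher, and leaving out WT library 2 gave 8 lower and 1 higher. Without KO library 1 or 2 the calls were 27 lower and 2 higher, or 28 lower and 3 higher, and in these 4 fits 31 to 35 members had a log2 change below 0.

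Origin licensing and helicase genes held the largest falls. Gins3 was 10.2 and 11.9 CPM in WT and 4.46 and 4.23 CPM in KO (log2 change -1.33, SE 0.178, adjusted p = 5.88e-04). Gins4 was 90.7 and 87.8 CPM in WT and 40.3 and 38 CPM in KO (log2 change -1.17, SE 0.0932, adjusted p = 4.67e-05). Both KO libraries lay far below both WT libraries in these 2 GINS subunits. The share of all features with groups of 2 separated in this set was not computed. Mcm2 was 340 and 333 CPM in WT and 166 and 156 CPM in KO (log2 change -1.05, adjusted p = 3.13e-05). Mcm5 was 317 and 302 CPM in WT and 165 and 168 CPM in KO (log2 change -0.88, adjusted p = 6.46e-05). Gins2 and Orc6, another subunit of the origin recognition complex, followed at -0.75 (adjusted p = 6.52e-04) and -0.74 (adjusted p = 9.93e-04). Reads of the overlap of Gins2 with Gse1, which also fell (log2 change -0.45, adjusted p = 0.00592), cannot be assigned. Cdc6 was 38.2 and 36.3 CPM in WT and 43.6 and 42.8 CPM in KO, higher in both KO libraries but not past the threshold (log2 change 0.23, adjusted p = 0.111). Gins1 did not pass either (log2 change 0.35, 95% interval 0.03 to 0.67, adjusted p = 0.0885), nor did Mcm10 (0.05, adjusted p = 0.69).

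Of the fork genes 6 fell and Fen1 alone rose. Fen1 (chr19:10199132-10204169, mm10) was 38.9 and 38.8 CPM in WT and 71.1 and 63.2 CPM in KO (log2 change 0.81, SE 0.101, adjusted p = 4.31e-04). Its exons overlap, on the opposite strand, Tmem258 and Gm10143, and the Gm10143 entry held nearly the same levels (39.1 and 40.2, then 70.4 and 62 CPM), so the 2 entries cannot be told apart here. Tmem258 fell (log2 change -0.56, adjusted p = 0.0195). Pcna was 133 and 122 CPM in WT and 80.2 and 80.2 CPM in KO (log2 change -0.66, adjusted p = 5.23e-04). Rfc3 and Pold1 had log2 changes of -0.65 (adjusted p = 0.00304) and -0.61 (adjusted p = 0.00193). Lig1 did not pass (-0.16, adjusted p = 0.169). Rrm2 was 114 and 114 CPM in WT and 64.2 and 78.7 CPM in KO (log2 change -0.66, adjusted p = 0.00168), while Tyms did not pass (0.07, adjusted p = 0.633).

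Control genes of early and late cycle phases were called unevenly in the Mettl3 set. In G1 and S phase control 1 of 6 genes fell: Ccne1 was 70.2 and 68 CPM in WT and 54 and 58.1 CPM in KO (log2 change -0.29, SE 0.0931, adjusted p = 0.0429). Ccnd1 was 50.7 and 54 CPM in WT and 64.6 and 56 CPM in KO (log2 change 0.22, adjusted p = 0.149), and Cdc25a had a log2 change of 0.06 (adjusted p = 0.677). In G2 and M phase control 4 of 5 fell. Ccna2 was 190 and 186 CPM in WT and 101 and 115 CPM in KO (log2 change -0.79, adjusted p = 2.61e-04). Cdk1 was 88.1 and 89 CPM in WT and 67.3 and 67.8 CPM in KO (log2 change -0.38, adjusted p = 0.0094), with no overlap. Among the 119 other pathway genes 48 fell, 11 rose and 60 did not pass. The CDK inhibitor Cdkn1b fell (log2 change -1.59, adjusted p = 3.12e-05) and the securin Pttg1 rose (1.36, adjusted p = 1.06e-04), as did Tk1 (1.01, adjusted p = 1e-04). Cdkn1a did not pass (0.30, adjusted p = 0.113). The two-cell-like markers summed to 1.9 to 2.13 CPM in WT and 156 to 174 CPM in KO. The ESC markers summed to 1526 to 1537 CPM in WT and 1187 to 1195 CPM in KO, with 3 of 8 lower and 2 higher by test. Of all features at least as abundant as the lowest member, 23.1% were lower and 20.7% higher. The fibroblast and feeder markers summed to 41.7 to 44.7 and 17.4 to 35.2 CPM, and the primitive endoderm markers to 20.6 to 23.8 and 25.9 to 37.2 CPM. The part of these measures in the members' differences was not tested.

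The next comparison tested whether the effect of 4OHT in the Ythdc1 set differed from that of Mettl3 KO. In a fit of all 12 libraries, 15 members had a lower effect in the Ythdc1 set, 7 a higher one and 20 did not pass, against 11.6% and 13.7% of all features. Among features at least as abundant as the lowest member, 19.6% were lower and 22.7% higher. By their own calls, 23 members fell in both sets, 14 fell in the Ythdc1 set and did not pass in the Mettl3 set, 3 fell in the Mettl3 set and did not pass in the Ythdc1 set (Gins2, Gins3 and Rfc5), 1 passed in neither (Tyms) and 1 moved oppositely (Fen1). Over all features tested in both sets 7.11% fell in both, and 12.4% of those at least as abundant as the lowest member. The 2 sets share no libraries, and set and genotype cannot be told apart.

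The largest differences toward a lower effect in the Ythdc1 set were those of Cdc6 (-1.37, SE 0.146, adjusted p = 1.26e-06) and Fen1 (-1.11, SE 0.153, adjusted p = 2.21e-05). Fen1 had risen in the Mettl3 set. The Gm10143 entry, which cannot be told apart from Fen1, gave -1.04 (adjusted p = 3.52e-05). Gins1 (-0.91, adjusted p = 5.06e-04), Cdc25a (-0.85, adjusted p = 2.01e-05) and Mcm10 (-0.70, adjusted p = 1.9e-04) followed, with Gmnn and Ccne1 both at -0.69 (adjusted p = 0.00582 and 0.0176). In the opposite direction stood 3 GINS subunits, Gins3 (1.08, adjusted p = 0.0015), Gins2 (0.85, adjusted p = 1.8e-05) and Gins4 (0.79, adjusted p = 2.01e-05), then Mcm2 (0.68, adjusted p = 2.09e-05). Among the GINS subunits, Gins1 was thus lower and the other 3 higher in this difference. The value of Gins2 is uncertain, since Gse1, which overlaps it, was also higher (1.20, adjusted p = 5.83e-07). 3 further members had higher values: Orc6 (0.42), Mcm5 (0.41) and Rfc5 (0.41). Pcna (-0.05, 95% interval -0.28 to 0.18) and Rrm2 (-0.17, interval -0.41 to 0.07) did not pass. Ccnd1 did not pass (-0.46, adjusted p = 0.0713) but did with the replicate number as a block (-0.45, adjusted p = 0.00711). Mcm6 (-0.28, adjusted p = 0.0377) and Orc1 (0.32, adjusted p = 0.0476) also passed only with that block.

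**Figure D2:**
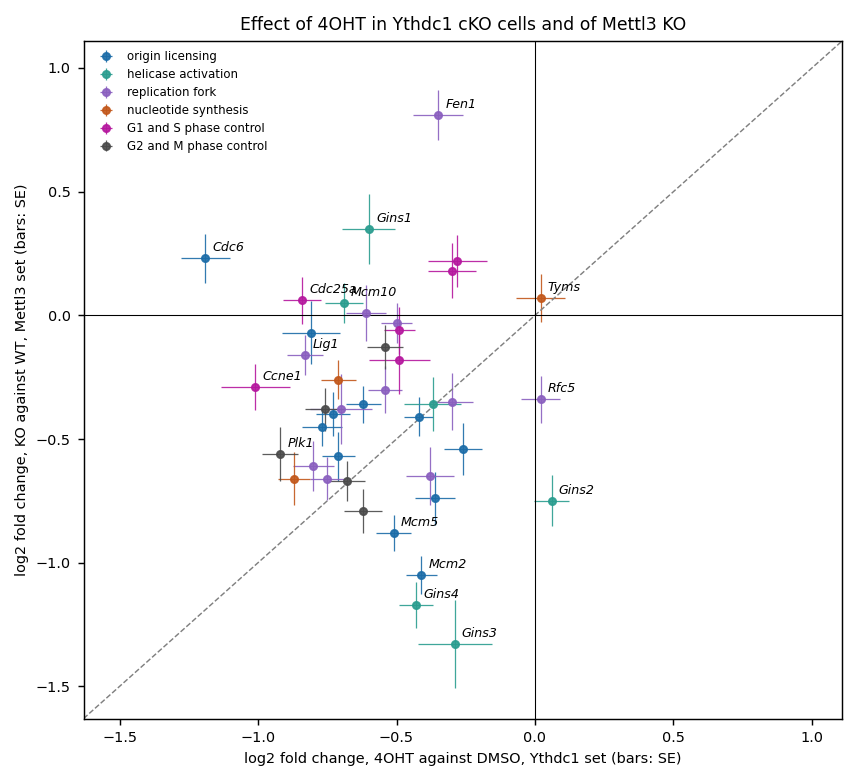
Each point is 1 of the 42 genes, with the log2 fold change of 4OHT against DMSO in the Ythdc1 set on the x axis, of KO against WT in the Mettl3 set on the y axis, SE bars, color by role and the dashed line marking equal change. Cdc6 lies at -1.19 and 0.23, Fen1 at -0.35 and 0.81, and Gins4 at -0.43 and -1.17.

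The Dux set repeated the 4OHT comparison in Ythdc1 cKO cells that were Dux-Het or Dux-KO. In Dux-Het cells 24 members fell and none rose, against 4.34% of 29322 features that fell and 4.99% that rose. In Dux-KO cells 21 fell and none rose, against 4.36% and 5.5%. Among features at least as abundant as the lowest member, 9.08% fell and 5.13% rose in Dux-Het, and 8.74% fell and 5.79% rose in Dux-KO cells. All 42 log2 changes were below 0 in both genotypes, with medians of -0.57 and -0.53, but E2f1 in Dux-Het cells was at 0.01 when gene entries alone were fitted. All 21 members called in Dux-KO cells were also called in Dux-Het cells and in the Ythdc1 set, and 13 fell in all 4 comparisons. Of all features tested in the comparisons concerned, 3.43% fell in the Ythdc1 set, Dux-Het and Dux-KO cells (6.62% of the abundant features) and 1.69% in all 4 comparisons (3.39%). The calls depended on single libraries of 2: without DMSO library 1, DMSO library 2, 4OHT library 1 or 4OHT library 2 they were 16, 15, 9 and 11 in Dux-Het cells, and 9, 19, 2 and 2 in Dux-KO cells. The DMSO libraries of Dux-KO cells differed most within a group (chi-square over degrees of freedom 99.07).

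By role, 8 of 11 origin licensing genes fell in each genotype. Cdc6 was 58.2 and 42.7 CPM under DMSO and 26.5 and 21 CPM under 4OHT in Dux-Het cells (log2 change -1.06, SE 0.19, adjusted p = 0.00664). In Dux-KO cells it was 64.1 and 54.5, then 26.4 and 25.9 CPM (log2 change -1.14, SE 0.19, adjusted p = 0.00487). The groups of 2 libraries were separate in both genotypes, and the share of all features so separated was not computed. Mcm5 was 367 and 360, then 231 and 236 CPM in Dux-Het cells (log2 change -0.62, adjusted p = 0.0173). In Dux-KO cells Mcm5 was 371 and 327, then 213 and 231 CPM (log2 change -0.61, adjusted p = 0.0193). Gmnn had log2 changes of -0.95 (adjusted p = 0.00455) and -0.82 (adjusted p = 0.00985). Of helicase genes Mcm10 fell in both genotypes, with log2 changes of -0.86 (adjusted p = 0.00329) and -0.79 (adjusted p = 0.00523). Cdc45 did not pass in either (-0.29, adjusted p = 0.282, and -0.18, adjusted p = 0.519).

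Of 11 fork genes 4 fell in Dux-Het and 3 in Dux-KO cells, and both ribonucleotide reductase subunits fell in each. Pcna was 147 and 165, then 83.9 and 91.3 CPM in Dux-Het cells (log2 change -0.82, adjusted p = 0.00477). In Dux-KO cells Pcna was 132 and 135, then 82.1 and 80.3 CPM (log2 change -0.67, adjusted p = 0.0123). Lig1 had log2 changes of -0.88 (adjusted p = 0.00664) and -0.92 (adjusted p = 0.00549). Rrm2 was 130 and 155, then 73.1 and 92.6 CPM in Dux-Het cells (log2 change -0.77, adjusted p = 0.0141), and 123 and 129, then 78.9 and 71.2 CPM in Dux-KO cells (-0.71, adjusted p = 0.0201). No 4OHT library reached a DMSO library in any of these 3 genes, again without a share over all features to set beside it.

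Of G1 and S phase control genes 4 of 6 fell in each genotype. Ccne1 was 97.1 and 107, then 39.6 and 41.9 CPM in Dux-Het cells, the largest fall of any member there (log2 change -1.30, SE 0.143, adjusted p = 4.46e-04). In Dux-KO cells Ccne1 was 109 and 97.6, then 42.6 and 39.9 CPM (log2 change -1.28, SE 0.142, adjusted p = 4.98e-04). Ccnd1 was 92.5 and 83.7, then 54.1 and 47.6 CPM in Dux-Het cells (log2 change -0.77, adjusted p = 0.0108), and fell by 0.69 on the log2 scale in Dux-KO cells (adjusted p = 0.0182). Its groups of 2 libraries did not overlap here. The overlap in the Ythdc1 set was between groups of 4, so these are not like comparisons. LTO1, whose exons overlap those of Ccnd1, had log2 changes of -0.61 in Dux-Het (adjusted p = 0.0352) and -0.46 in Dux-KO cells (adjusted p = 0.0911). Cdc25a had a log2 change of -0.85 in Dux-Het cells (adjusted p = 0.00465) and was 2-fold lower in Dux-KO cells (adjusted p = 0.00195). Of the 5 genes of G2 and M phase control 4 fell in Dux-Het and 3 in Dux-KO cells. Cdk1 was 109 and 112, then 58.8 and 71.4 CPM in Dux-Het cells (log2 change -0.74, adjusted p = 0.0102), and 103 and 106, then 65.8 and 58.7 CPM in Dux-KO cells (-0.70, adjusted p = 0.0141). Of the 119 other pathway genes 24 fell and 4 rose in Dux-Het cells and 23 fell and 4 rose in Dux-KO cells, and the 4 that rose were Cdkn1a (log2 changes 1.78 and 1.75), Rb1, Rbl2 and Cdkn2b in both.

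**Figure D3:**
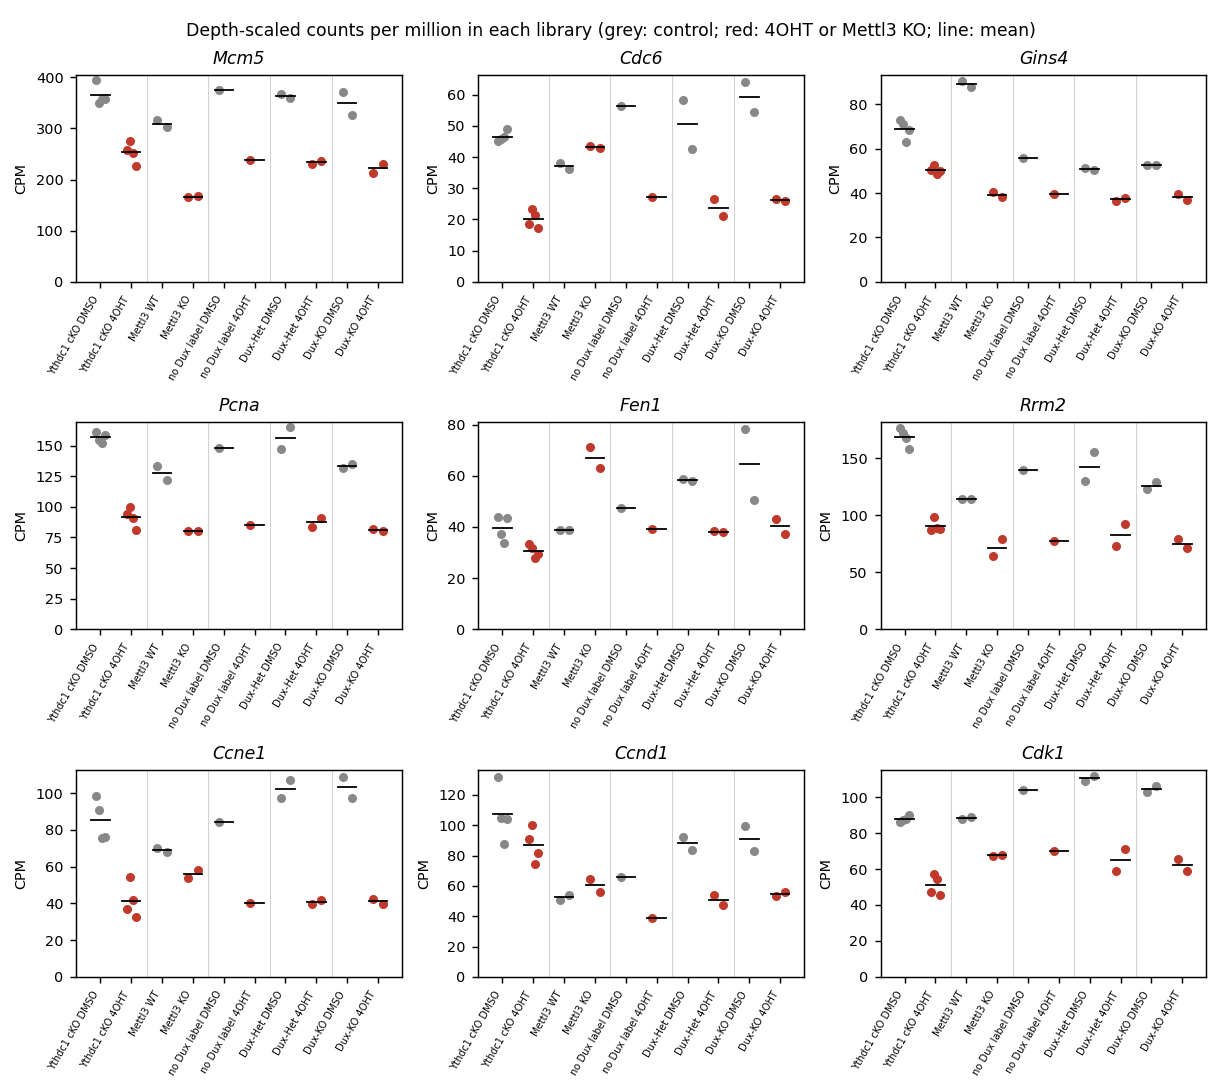
CPM of 9 members in each library (points, grey for DMSO or WT, red for 4OHT or Mettl3 KO; the line is the mean), by group on the x axis and with a y axis from 0. Red points lie below grey ones in each Dux-labelled pair of groups for all 9 genes. In Mettl3 KO both red points lie above the grey ones for Fen1, which passed its test, and for Cdc6 and Ccnd1, which did not. The share of all features separated in this way in these sets was not computed.

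Whether the effect of 4OHT differed between Dux-KO and Dux-Het cells was tested as an interaction. No member was called, and no member had an unadjusted p under 0.05. No feature was called over the whole table either, so the background was 0% in both directions. The differences ranged from -0.30 (E2f1) to 0.27 (Gins1). The 95% interval of Mcm5 ran from -0.41 to 0.43, that of Ccne1 from -0.42 to 0.46 and that of Cdc6 from -0.66 to 0.51. Direct comparison of Dux-KO with Dux-Het cells called no member under DMSO (background 0.0341% lower and 0% higher) and none under 4OHT (0.273% and 0.00341%, and 0.0191% lower among features at least as abundant as the lowest member), and no member reached an unadjusted p under 0.05 in either. DESeq2 also called no member in these 3 comparisons.

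**Figure D4:**
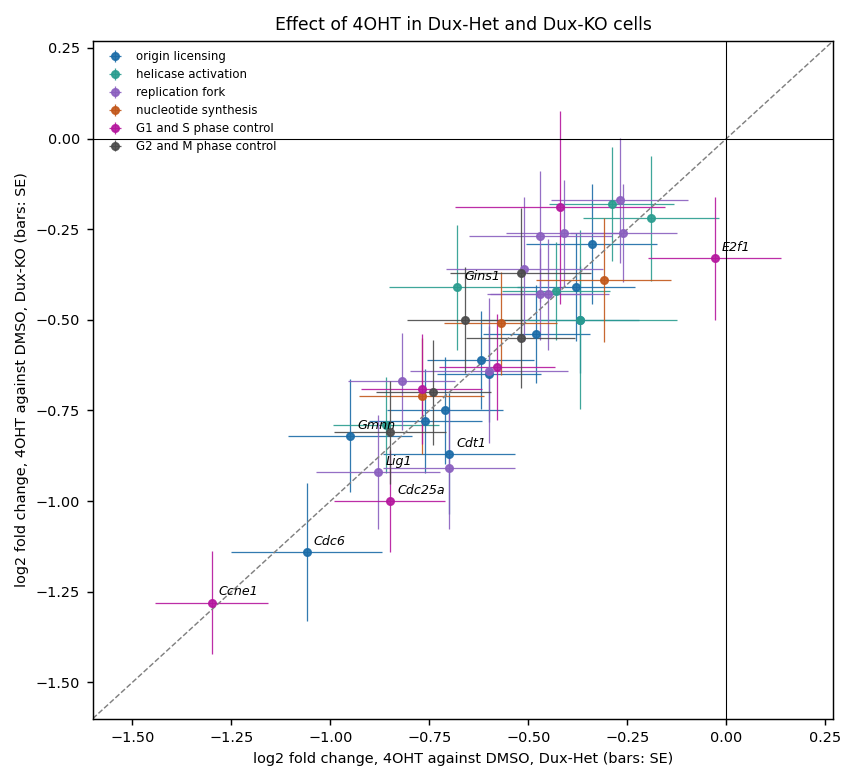
Log2 fold change of 4OHT against DMSO in Dux-Het cells (x axis) and Dux-KO cells (y axis) for the 42 genes, with SE bars, color by role and a dashed line of equal change. All points lie below 0 on both axes, from Ccne1 at -1.30 and -1.28 to E2f1 at -0.03 and -0.33.

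Markers of two-cell-like cells differed between these genotypes. In Dux-Het cells the 10 markers summed to 9.64 to 13.7 CPM under DMSO and 87.6 to 97.9 CPM under 4OHT. In Dux-KO cells they summed to 0.0691 to 0.0849 CPM and 0.0596 to 0.0902 CPM, and 8 of the 10 had no count in any of the 4 libraries. The members' summed level was 4950 and 5111 CPM under DMSO and 3169 and 3411 CPM under 4OHT in Dux-Het cells. In Dux-KO cells it was 4758 to 5075 CPM and 3155 to 3190 CPM, so the fall was present where these markers were at or near 0. The ESC markers summed to 2170 to 2247, then 1401 to 1674 CPM in Dux-Het and to 2069 to 2433, then 1399 to 1545 CPM in Dux-KO cells, with 3 and 2 of 8 lower by test. Of all features at least as abundant as the lowest member, 9.08% and 8.74% were lower. Repeat families took 18.48 and 20.95%, then 24.36 and 25.02% of counts in Dux-Het and 16.39 and 20.78%, then 24 and 24.41% in Dux-KO cells. The part of these measures was not tested.

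**Figure D5:**
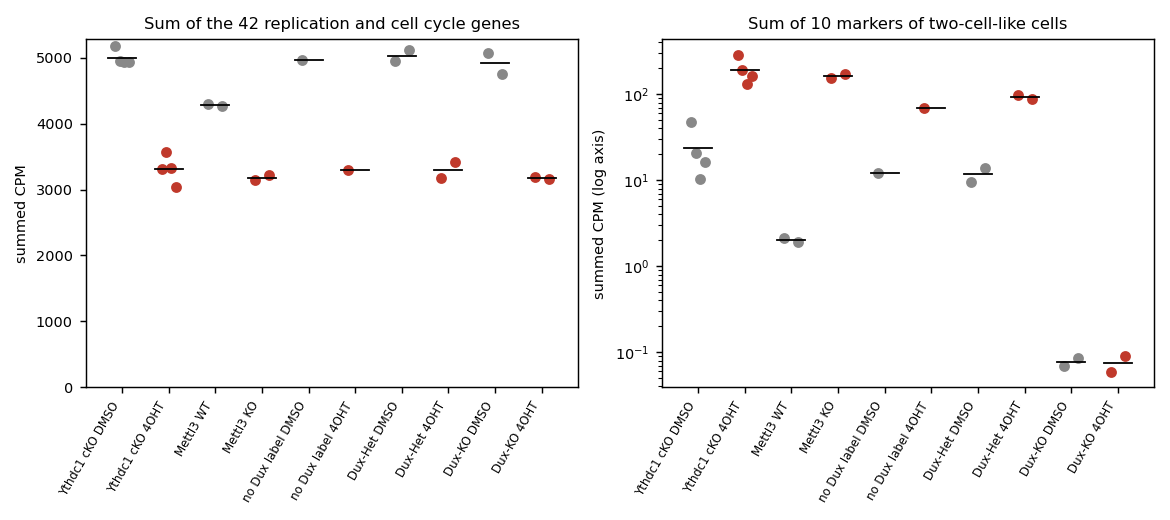
Summed CPM of the 42 replication and cell cycle genes (left, axis from 0) and of 10 markers of two-cell-like cells (right, log axis) in each library, by group, with grey for DMSO or WT, red for 4OHT or Mettl3 KO and a line at the mean. In Dux-KO cells the left sum falls from 4758 to 5075 CPM to 3155 to 3190 CPM while the right sum is 0.0596 to 0.0902 CPM.

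In the pair with no Dux label there was 1 library per treatment and no test. All 42 log2 ratios of 4OHT to DMSO were below 0, as were 12512 of 25271 entries with at least 20 counts in the pair. The median of the members was -0.55 and their range -1.06 to -0.08. For 40 members the 95% exact interval, which covers counting error only, lay below 0. The share of all entries with such an interval was not computed. The members summed to 4962 CPM under DMSO and 3296 CPM under 4OHT.

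Exons of 16 members overlap those of another gene, nearly all on the opposite strand, and pseudogenes of Pcna, Tyms and Ccnb1 have entries of their own. Levels of these members are uncertain to the extent that the authors' counting shared reads between such entries. The 26 members without an overlap include Cdc6, Mcm5, Gins4, Rrm2, Ccne1, Cdc25a and Cdk1.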

How the data were processed

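Per the labels' protocols, total RNA without rRNA was sequenced in paired-end reads from 22 mouse ESC libraries in 10 groups. Tools named in the submitters' processing notes are STAR 2.7, RSEM, Bowtie2 and bcl2fastq, with mm10 as the build. No source used here gives their order, the counting tool, the annotation or the use of strand. The authors deposited whole-number counts, unscaled, for 43672 gene entries and 1077 repeat families. The authors also deposited a normalized signal table, which equals the counts divided by 1 factor per library over 34971 complete lines (largest relative deviation 5.44e-15). That table served only as an alternative scaling.

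Groups were taken from the sample titles. For the Dux set the genotype and treatment fields are shifted by 1 sample against the titles, and the titles match the column names. Counts of all features were tested in R 4.3.3 with edgeR 4.0.16, using glmQLFit and glmQLFTest after TMM scaling and filterByExpr on the groups, and p-values were adjusted by the Benjamini-Hochberg method and called under 0.05. All adjusted p-values come from this quasi-likelihood test unless another is named. Standard errors were derived from the fold change and its F statistic. The 95% intervals use the total degrees of freedom of the test, residual plus prior. The Ythdc1 set, the Mettl3 set and the Dux set (10 libraries, 1 shared dispersion fit) were each fitted on their own, and 1 fit of 12 libraries gave the difference between the Ythdc1 and Mettl3 effects. The pair with no Dux label has no replicates, so log2 ratios were taken after adding 0.5 CPM, with exact Poisson-based intervals. Gene positions and exon lengths are from GENCODE vM21 on GRCm38, the mm10 build. The code was tested on simulated data.

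The members and the gene lists were chosen with earlier results of these data known. Members described were the up to 4 largest calls per role in a comparison plus 8 leading genes (Mcm5, Cdc6, Cdc45, Pcna, Rrm2, Ccne1, Ccnd1, Cdk1). Members named beyond these were chosen after their values were seen. In the Ythdc1 set the columns with the same number deviated together (r from 0.115 to 0.377 over 10005 entries in 4 pairs), so the numbers were taken as pairs in the alternative with a replicate block. Alternatives were RLE scaling, the authors' factors, DESeq2 1.42.0, no filter, gene entries alone, the replicate block and leaving out each library. Library totals of 24.96 to 54.14 M and the spread between replicates set the precision.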

Additional observations from a re-analysis of the deposited data

Results flagged for a closer look

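In 84 groups of 4 libraries (42 members in 2 groups of the Ythdc1 set), the gap of the lowest or highest library to its neighbor, over the group's range, exceeded Dixon's 95% critical value in 2, where chance gives about 1 in 20 groups. Gins1 was 14.5 CPM in DMSO library 3 against 16.6 to 17 CPM in the other 3 (gap over range 0.854). Pole, the leading strand polymerase, was 119 CPM in 4OHT library 4 against 130 to 132 CPM in the other 3 (0.857).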

How the results depend on the processing

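Member counts stayed within 1.5 times the reported ones under RLE scaling, the authors' factors, DESeq2, no filter and gene entries alone. With the replicate number as a block, 38 members fell in the Ythdc1 set, 26 in the Mettl3 set, 32 in Dux-Het and 28 in Dux-KO cells. In the Dux set and the Mettl3 set, with 2 pairs each, the libraries share only a number (r of 0.565 in Dux-Het, 0.244 in Dux-KO and 0.0805 in the Mettl3 set). By role, the block took the fork genes that fell from 4 to 9 in Dux-Het and from 3 to 6 in Dux-KO cells, and the helicase genes from 1 to 2 in Dux-KO cells. For Dux-KO against Dux-Het cells it called no member, but over all features 61 lower and 71 higher under DMSO (10 and 0 without it) and 185 lower and 107 higher under 4OHT (80 and 1 without it). Beyond Ccnd1, Mcm6 and Orc1, given with the difference between sets, and 15 further calls gained in the Dux set, the block changed no call of a named gene.

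Leaving out 1 library gave 37 to 39 members lower in the Ythdc1 set, 2 to 28 lower and 0 to 3 higher in the Mettl3 set, 9 to 16 lower in Dux-Het and 2 to 19 lower in Dux-KO cells. With 1 library left in a group of 2, that library is assumed to vary like the others. Direction reversed only for values that did not pass. Under leave-one-out these ran as follows. In the Ythdc1 set, Rfc5 ran from -0.03 to 0.07 and Tyms from -0.03 to 0.11. In the Mettl3 set, Cdc25a ran from -0.02 to 0.12, Gmnn from -0.21 to 0.04, Pola1 from -0.17 to 0.16 and Pole from -0.11 to 0.02. In Dux-Het, E2f1 ran from -0.15 to 0.10, and was 0.01 with gene entries alone. In Dux-KO, Ccne2 ran from -0.53 to 0.19. In the difference between sets, Ccnb1 ran from -0.05 to 0.10, Cdc45 from -0.08 to 0.10, Mcm7 from -0.06 to 0.06, Pcna from -0.15 to 0.00, Rfc2 from -0.03 to 0.16 and Tyms from -0.07 to 0.08. There Cdc45 and Mcm7 were both -0.00 under RLE scaling and DESeq2 and -0.02 under the authors' factors, and Ccnb1 was -0.01 under those factors.

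In the interaction, Ccnd1 ran from -0.08 to 0.22, Ccne1 from -0.09 to 0.10, Cdc45 from -0.01 to 0.22, Cdc6 from -0.31 to 0.12, Cdk1 from -0.09 to 0.17, Cdkn1a from -0.17 to 0.08, Mcm5 from -0.11 to 0.11 and Rrm2 from -0.10 to 0.21. Ccne1 and Mcm5 were -0.02 under RLE scaling and DESeq2 and -0.01 with no filter and the authors' factors. With gene entries alone they were -0.01 and -0.02. For Dux-KO against Dux-Het under DMSO, Ccnd1 ran from -0.12 to 0.18, Ccne1 from -0.10 to 0.10, Cdkn1a from -0.06 to 0.20 and Mcm5 from -0.19 to 0.03. Ccne1 was 0.02 there under RLE scaling, DESeq2 and the authors' factors, and 0.01 with no filter, gene entries alone or the 8 libraries with a Dux label. Under 4OHT, Ccne1 ran from -0.03 to 0.06, Cdc6 from -0.02 to 0.32, Cdk1 from -0.19 to 0.08, Cdkn1a from -0.02 to 0.09 and Rrm2 from -0.30 to 0.03, and Ccne1 was -0.00 with no filter. The cause of these reversals was not tested.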
